A study of Mus musculus with 8 samples.

Results

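The effect of deleting G9a from sensory neurons, averaged over vehicle and inflamed mice, was measured by RNA sequencing of mouse dorsal root ganglia, which hold the cell bodies of sensory neurons. G9a-iKO mice carried G9aflox/flox, floxed alleles of Ehmt2 (the gene for the histone methyltransferase G9a). They also carried Avil-iCreERT2/AJwo, an inducible Cre recombinase under control of sequences of the sensory neuron gene Avil. WT mice were littermates lacking Cre, and whether they carried the floxed alleles was not stated. In each genotype the left paw was treated with vehicle or with CFA (complete Freund's adjuvant, which causes lasting inflammation), and ganglia were collected at day 14. The 4 groups held 2 libraries each, so that 4 iKO libraries were set against 4 WT libraries. The difference is the mean of the iKO vehicle and iKO CFA groups minus the mean of the WT vehicle and WT CFA groups, with a separate mean for each group in the model, and all 8 libraries and all 20235 of 25780 genes that passed a filter on low counts entered the fit. Age, sex, CFA dose and the treatment that activates Cre were not given, nor whether libraries stand for separate animals, so p-values measure only the spread between these libraries, which may be technical.

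G9a works in a complex with its partner GLP (Ehmt1) and adds methyl groups to lysine 9 of histone H3, a mark associated with silent genes in euchromatin. Cells lacking the enzyme are known to express genes that are normally restricted to other tissues or to the germline. In sensory neurons G9a is known as a regulator of ion channel and receptor genes after nerve injury. Bulk ganglia also contain satellite glia, Schwann cells, fibroblasts, endothelium and immune cells, and Avil is known mainly as a gene of sensory neurons. In such tissue fewer cells of a type and less RNA per cell cannot be told apart.

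Library totals ran from 26312614 to 42971823 reads, and the libraries did not fall into their labelled groups over all genes. Over the 14060 genes with a mean of at least 1 on the log2 CPM scale, the median absolute log2 difference was 0.51 between WT CFA libraries 1 and 2. The same measure was 0.16 and 0.18 between WT CFA library 1 and the iKO vehicle libraries, and 0.23 and 0.22 between WT CFA library 2 and the iKO CFA libraries. Libraries of the other groups differed from each other by 0.23 in WT vehicle, 0.12 in iKO vehicle and 0.14 in iKO CFA. The WT vehicle libraries lay at least 0.39 from every library outside their group. CPM are read counts scaled by library size, which compare libraries but not genes of different length. Of 11 listed nuclear noncoding RNAs, 10 had counts. Over these 10 the WT vehicle libraries held 4398 and 4455 CPM, against 210 to 316.4 CPM in the other libraries. The deleted gene, described next, followed the labels in all 8 libraries.

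**Figure D1:**
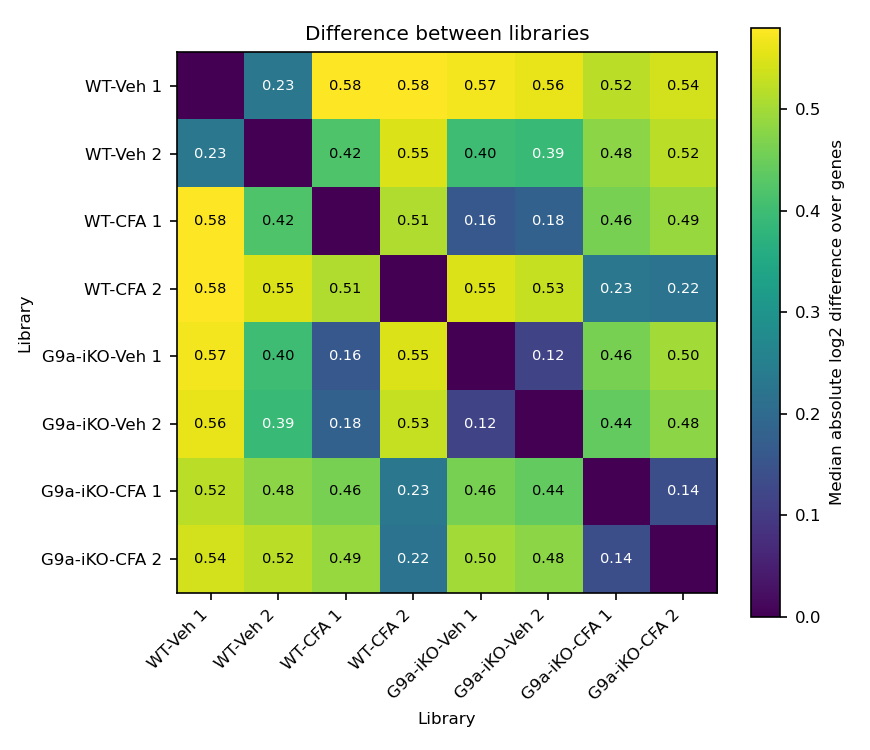
Median absolute log2 difference between every pair of libraries, over 14060 genes; darker cells are more alike. WT CFA library 1 was closer to the iKO vehicle libraries (0.16 and 0.18) than to WT CFA library 2 (0.51), which was closer to the iKO CFA libraries (0.23 and 0.22).

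Ehmt2, the gene floxed in iKO, was at 74.4 and 65.4 CPM in vehicle-treated WT, 74.2 and 61.3 CPM in CFA-treated WT, 33.998 and 31.6 CPM in vehicle-treated iKO and 44.95 and 44.2 CPM in CFA-treated iKO. Every iKO library lay below every WT library. The averaged log2 fold change was -0.85 ± 0.12, adjusted p = 0.00718, in a test across all genes by edgeR's quasi-likelihood method with Benjamini-Hochberg adjustment, used for every adjusted p below. Where a gene's levels are followed by values in brackets, the first is this log2 fold change with its standard error. Under vehicle alone the log2 fold change of Ehmt2 was -1.09, adjusted p = 0.00655, and under CFA alone -0.60, adjusted p = 0.154. The difference between these values had an adjusted p of 0.214. Counts were per gene, so reads of the floxed exons were not separated from the rest. Without iKO vehicle library 1, iKO vehicle library 2 or iKO CFA library 1 the adjusted p was between 0.0543 and 0.0646, above the threshold of 0.05. An additive model, with 1 genotype and 1 treatment term, gave an adjusted p of 0.0516 with all 8 libraries, and 0.205 with a log2 fold change of -0.61 when both WT vehicle libraries were also left out. Avil, whose sequences drive Cre, encodes the actin-binding protein advillin. In WT it was at 509 and 662 CPM under vehicle and 942 and 398 CPM under CFA. In iKO it was at 471 and 429.5 CPM under vehicle and 221 and 175 CPM under CFA. Its WT and iKO values overlapped, with an averaged log2 fold change of -1.07 ± 0.26, adjusted p = 0.0495. Its call was lost without any 1 of the 6 libraries outside WT CFA, with a highest adjusted p of 0.19 for Avil (without iKO vehicle library 2).

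At the threshold of adjusted p 0.05, 1129 genes (5.58% of those tested) differed between the genotypes, 643 higher (3.18%) and 486 lower (2.4%) in iKO. Unadjusted p was below 0.05 for 4570 genes. DESeq2 called 2592 genes, of which 47.8% were higher, against 57% here. In 884 genes (4.37%) all 4 iKO libraries lay above all 4 WT libraries, and in 400 (1.98%) they lay below. Genes that met both criteria numbered 603 (2.98%), 471 higher (2.33%) and 132 lower (0.652%). Since non-overlap was required of them, it is a description of these genes and not a further test. The higher calls were mostly free of overlap, 73.3% of them, and the lower calls mostly were not, with 27.2% free of overlap. Just inside the limit on the higher side was Arpc4, whose lowest iKO library was at 118.5 CPM and highest WT library at 118.4 CPM, and just outside was Abcb8, at 45.42 and 45.43 CPM. The number of calls depended on which libraries were kept. It lay between 325 and 489 without any 1 of the WT vehicle or iKO libraries, and was 5106 without WT CFA library 1 and 4750 without WT CFA library 2. Of the 471 genes higher without overlap, 171 were called without each of the 8 libraries in turn, and of the 132 lower, 25.

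Genes without overlap differ in the same direction under both treatments by that criterion, so the sizes that follow describe them. Among those that rose the median log2 fold change was 2.27 averaged, 2.17 under vehicle and 2.42 under CFA, and 134 of the 471 passed the threshold under each treatment separately. Of the 132 that fell without overlap, 11 did, and their medians were -1.29 averaged, -1.51 under vehicle and -1.09 under CFA. The 354 lower calls whose genotypes overlapped had a median of -2.17 under vehicle and -0.156 under CFA. A genotype difference that itself differed between treatments (an interaction past adjusted p 0.05) was found for 64.1% of these 354 genes, for 48 of the 471 and for 9.36% of all genes tested, 6.19% with a more positive and 3.17% with a more negative difference under CFA. A difference present under 1 treatment only leads to overlap, so the first 2 of these shares follow in part from the way the genes were divided. The vehicle and CFA comparisons alone called 3564 genes (17.6%) and 345 genes (1.7%). Under vehicle 8.28% of genes were higher and 9.33% lower, and under CFA 1.5% and 0.208%. The averaged call rests on the same libraries as these, and the WT vehicle libraries are the ones that stood apart.

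**Figure D2:**
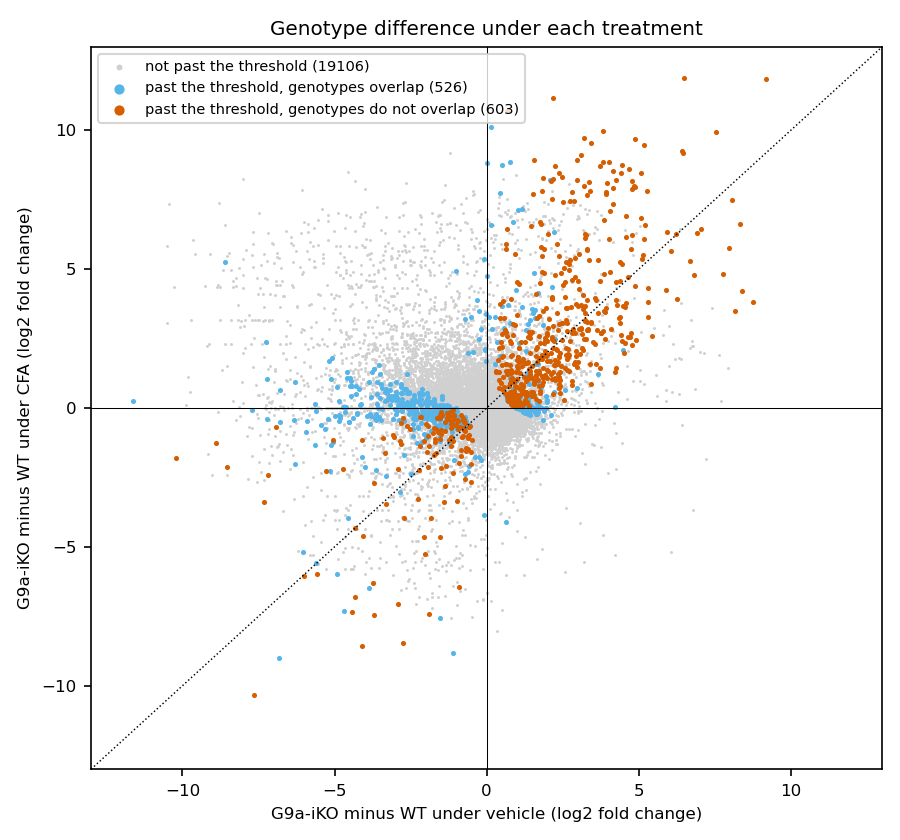
Each point is a gene, placed by its log2 fold change of iKO against WT under vehicle (horizontal axis) and under CFA (vertical axis); the dotted line marks equal values. Of the genes past the threshold, the 603 without overlap (orange) lie along the dotted line in the upper right and lower left, and many of the 526 with overlap (blue) extend to the left near 0 on the vertical axis.

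The gap between genotypes was wider on the higher side. The lowest iKO library was at least 2 times the highest WT library in 223 of the 471 genes that rose, and at least 10 times in 34. For the genes that fell, the lowest WT library was at least 2 times the highest iKO library in 20 of 132, and at least 10 times in 2. In 190 of the 471 every WT library was below 1 CPM, and in 102 of these 190 every iKO library was at 1 CPM or more. Such genes passed the low-count filter through the iKO libraries. Over all genes tested every WT library was below 1 CPM in 3510. Of the 132 genes that fell, every iKO library was below 1 CPM in 37, and in 9 of these every WT library was at 1 CPM or more. The library nearest the other genotype was spread evenly over the WT libraries among the genes that rose, from 105 genes in WT vehicle library 1 to 133 in WT CFA library 2. Among the 132 genes that fell, it was WT CFA library 1 for 52 and WT CFA library 2 for 46.

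The genes with the largest rises were little expressed in WT ganglia and do not belong to one tissue by what they are known for. Cst12, of the cystatin family of protease inhibitors, was at 0 and 0.0298 CPM in vehicle-treated WT, 0 and 0 CPM in CFA-treated WT, 10.3 and 12.3 CPM in vehicle-treated iKO and 12.7 and 13.7 CPM in CFA-treated iKO. It had 1 read in the WT libraries together and 1772 in the iKO libraries, a depth-scaled ratio of 1586 with an exact 95% counting interval of 284.3 to 62690. Nt5el, related to the ecto-nucleotidases, had 2 and 628 reads, a ratio of 281.1 (77.49 to 2326). Those intervals cover counting error only.

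Serpinb5, the epithelial serpin known as maspin, reached the highest level among the 12 genes with the largest rises. It was at 1.57 and 1.43 CPM in vehicle-treated WT, 1.34 and 2.36 CPM in CFA-treated WT, 212 and 184 CPM in vehicle-treated iKO and 173 and 149.99 CPM in CFA-treated iKO. All 4 iKO libraries were far above all 4 WT libraries, and the averaged log2 fold change was 6.75 ± 0.22, adjusted p = 4.15e-06. Tph2, the neuronal tryptophan hydroxylase that catalyses the rate-limiting step of serotonin synthesis, was at 1.24 and 1.31 CPM in vehicle-treated WT, 1.52 and 1.68 CPM in CFA-treated WT, 88.6 and 82.005 CPM in vehicle-treated iKO and 78.2 and 83.1 CPM in CFA-treated iKO. The values within each genotype were close under both treatments, and the averaged log2 fold change was 5.86 ± 0.14, adjusted p = 6.99e-07. Gad1, which encodes an enzyme of GABA synthesis, was at 1.78 and 1.31 CPM in vehicle-treated WT, 0.561 and 0.274 CPM in CFA-treated WT, 16.8 and 15.04 CPM in vehicle-treated iKO and 18.2 and 16.7 CPM in CFA-treated iKO. It rose by 4.35 ± 0.24, adjusted p = 4.93e-05, and again the genotypes were far apart. Tmc2, a component of the mechanotransduction channel of hair cells, was at 0.168 and 0.179 CPM in vehicle-treated WT, 0.347 and 0.342 CPM in CFA-treated WT, 3.995 and 5.57 CPM in vehicle-treated iKO and 2.80 and 1.75 CPM in CFA-treated iKO, an averaged log2 fold change of 3.73 ± 0.35, adjusted p = 0.000831.

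Other genes of this group include 2 known from surface epithelia. Crct1, of the epidermal differentiation complex, was at 0 to 0.214 CPM in WT and 4.10 to 6.75 CPM in iKO (6.88 ± 0.65, adjusted p = 0.000831). Il1f9, the epithelial cytokine interleukin 36 gamma, was at 0.101 to 0.719 CPM in WT and 7.71 to 9.79 CPM in iKO (5.08 ± 0.39, adjusted p = 0.000298). Magea13, of the MAGE family expressed in testis and tumours, was at 0.0298 to 0.616 CPM in WT and 6.67 to 14.8 CPM in iKO (6.29 ± 0.29, adjusted p = 2.21e-05). Afp, the fetal serum protein alpha-fetoprotein, was at 0.214 to 0.469 CPM in WT and 10.5 to 18.2 CPM in iKO (5.36 ± 0.22, adjusted p = 1.42e-05). Myl7, the atrial myosin light chain, was at 0 to 0.187 CPM in WT and 3.63 to 5.67 CPM in iKO (5.34 ± 0.56, adjusted p = 0.00139). S100a5, a calcium-binding protein, and Acoxl, related to acyl-CoA oxidases, were at 0 to 0.134 CPM in WT and 3.13 to 6.09 CPM in iKO and 0 to 0.328 CPM in WT and 3.12 to 4.43 CPM in iKO. Prss41, a serine protease, was at 1.47 and 1.22 CPM in vehicle-treated WT, 0 and 0 CPM in CFA-treated WT, 5.78 and 6.49 CPM in vehicle-treated iKO and 7.86 and 8.83 CPM in CFA-treated iKO. Both WT CFA libraries had 0 reads of it, so its fitted fold change depends on the count added by the model and is not given. These 12 genes were chosen for their size of change among those past the threshold and without overlap. Each kept its call when any 1 of the 8 libraries was left out.

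**Figure D3:**
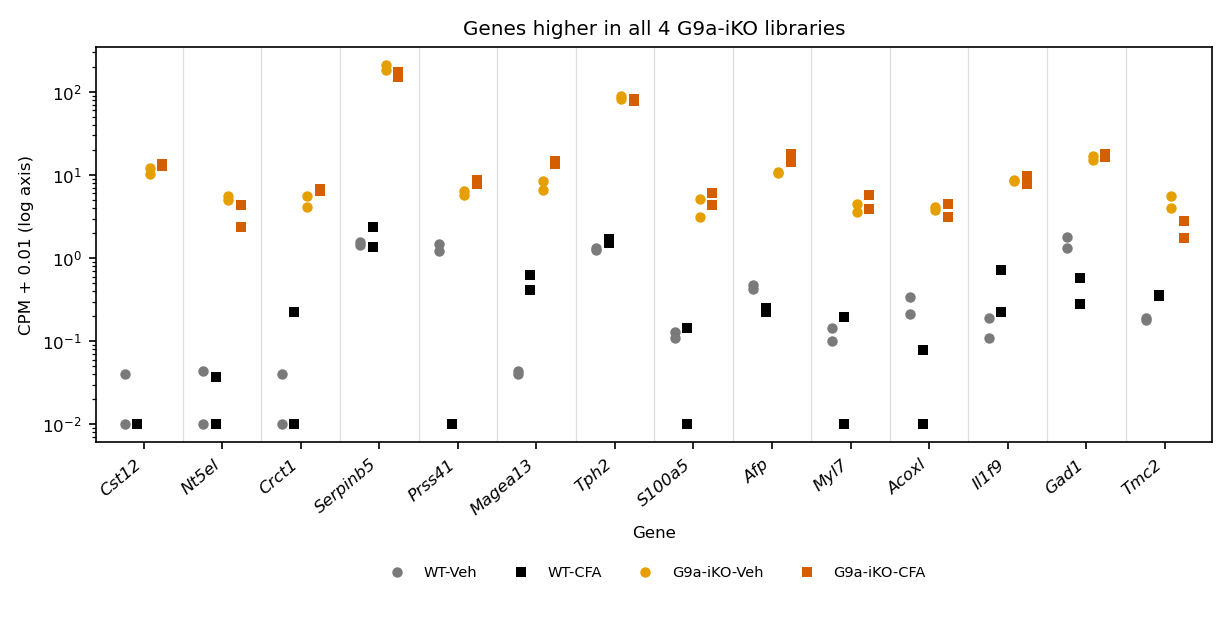
CPM plus 0.01 on a log axis for the 12 named genes with the largest rises, Gad1 and Tmc2; each point is a library, circles are vehicle and squares CFA, grey and black are WT and orange shades iKO. For each gene all 4 iKO points lie above all 4 WT points, and points at 0.01 are libraries with 0 reads.

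Start sites of the genes that rose held few CpG dinucleotides, the sites of DNA methylation. Windows from 250 bases before to 50 bases after the RefSeq start (GRCm38.p6 table, matched by symbol) were present for 347 of the 471 genes that rose, 86 of the 132 that fell and 14624 of all genes tested. The median number of CpGs in a window was 5 over 441 windows of the genes that rose, 16 over 108 windows of those that fell and 17 over 18669 windows of all genes tested. At least 15 CpGs were present in 22.4%, 53.7% and 54.7% of these windows. Weakly expressed genes have fewer CpGs in general, with at least 15 in 25.2% of windows of tested genes averaging below 1 on the log2 CPM scale and 64.5% of the rest. Among the genes that rose the same shares were 5.22% and 30%, and among those that fell 25% and 61.9%. This mean covers the iKO libraries as well. In 190 of the 471 genes that rose every WT library was below 1 CPM, and the windows were not matched on WT level. These are descriptions without a test, and a gene with several start sites counts more than 1 time.

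The upstream 250 bases of 4 of the genes that rose show this range, 5′ to 3′ on the gene's own strand, with every CpG in capitals. Cst12 (chr2:148789115-148789364, plus strand), Serpinb5 (chr1:106860925-106861174, plus strand) and Tph2 (chr10:115185023-115185272, minus strand) held 2, 6 and 7 CpGs there, and Gad1 (chr2:70561879-70562128, plus strand) held 17, all in GRCm38.p6.
Cst12: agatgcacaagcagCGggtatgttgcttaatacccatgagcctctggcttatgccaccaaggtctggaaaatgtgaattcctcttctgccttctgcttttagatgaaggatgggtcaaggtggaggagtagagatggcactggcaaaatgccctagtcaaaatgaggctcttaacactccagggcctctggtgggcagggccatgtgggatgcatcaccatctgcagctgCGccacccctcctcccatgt
Serpinb5: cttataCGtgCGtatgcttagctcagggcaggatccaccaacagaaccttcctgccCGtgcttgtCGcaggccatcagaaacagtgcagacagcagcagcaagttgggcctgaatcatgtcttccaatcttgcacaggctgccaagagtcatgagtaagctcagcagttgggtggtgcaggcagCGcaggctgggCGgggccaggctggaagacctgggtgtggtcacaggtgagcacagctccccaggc
Tph2: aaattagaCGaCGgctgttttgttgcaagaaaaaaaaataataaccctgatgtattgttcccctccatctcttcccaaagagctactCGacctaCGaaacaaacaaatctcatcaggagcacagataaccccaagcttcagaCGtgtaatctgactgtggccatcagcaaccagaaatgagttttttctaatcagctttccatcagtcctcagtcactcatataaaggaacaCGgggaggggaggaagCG
Gad1: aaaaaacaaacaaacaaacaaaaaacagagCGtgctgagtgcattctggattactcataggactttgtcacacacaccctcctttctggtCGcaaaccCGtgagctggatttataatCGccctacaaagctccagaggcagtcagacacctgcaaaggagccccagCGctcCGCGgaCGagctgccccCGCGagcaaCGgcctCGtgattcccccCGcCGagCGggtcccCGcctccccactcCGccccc
Cst12 and Gad1 thus stand at the poor and the rich end of these 4 promoters. Of the short motifs searched on both strands, CACGTG (the E-box) was in 4.08% of the windows of the genes that rose and 8.77% of all windows, GCGGGA (an E2F-like site) in 13.2% and 29.6%, TGACGTCA (the cyclic AMP response element) in 0.227% and 2.49%, and TGACTCA (an AP-1 site) in 7.94% and 4.2%. The first 3 contain a CpG and the last does not.

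Among the genes that fell, the largest change was in a histone pseudogene. H2af-ps2 had 532 reads over the WT libraries and 1 over the iKO libraries, a depth-scaled ratio of 594.3 (exact 95% counting interval 106.2 to 23520). Pisd-ps3, a pseudogene of the phospholipid enzyme gene Pisd, was at 65.1 and 75.96 CPM in vehicle-treated WT, 47.4 and 67.04 CPM in CFA-treated WT, 9.12 and 9.53 CPM in vehicle-treated iKO and 11.4 and 13.5 CPM in CFA-treated iKO (-2.56 ± 0.16, adjusted p = 8.95e-05), and the histone gene H2ac18 at 4.23 to 17.8 CPM in WT and 0.603 to 2.16 CPM in iKO (-2.89 ± 0.40, adjusted p = 0.00562). The genotypes did not overlap for any of them. Reads of pseudogenes and of the near-identical histone genes can be shared with copies elsewhere, so which copy they came from is uncertain. Wdfy1, which binds an endosomal phospholipid, was at 36.2 and 31.1 CPM in vehicle-treated WT, 68.9 and 49.5 CPM in CFA-treated WT, 11.99 and 13.98 CPM in vehicle-treated iKO and 9.76 and 7.07 CPM in CFA-treated iKO. Its averaged log2 fold change was -2.09 ± 0.17, adjusted p = 0.000408, and its fall also passed under vehicle (-1.37) and under CFA (-2.81) alone.

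The other genes with the largest falls include 2 known from injured sensory neurons. Sprr1a, a small proline-rich protein induced by nerve injury, was at 53.3 and 27.9 CPM in vehicle-treated WT, 7.91 and 10.4 CPM in CFA-treated WT, 1.76 and 0.287 CPM in vehicle-treated iKO and 2.02 and 1.75 CPM in CFA-treated iKO. Gal, the injury-induced neuropeptide galanin, was at 97.6 and 57.2 CPM in vehicle-treated WT, 20.5 and 24.7 CPM in CFA-treated WT, 9.34 and 8.84 CPM in vehicle-treated iKO and 10.24 and 13.05 CPM in CFA-treated iKO. In both genes the WT vehicle libraries were higher than the WT CFA libraries, and the WT CFA libraries were still above every iKO library. The averaged log2 fold changes were -3.77 ± 0.45, adjusted p = 0.00253 for Sprr1a and -2.02 ± 0.20, adjusted p = 0.000882 for Gal. Aldh1a3, which makes retinoic acid, was at 8.97 to 14.4 CPM in WT and 0.832 to 4.71 CPM in iKO (-2.04 ± 0.29, adjusted p = 0.00591), and Pappa, a protease that cleaves an insulin-like growth factor binding protein, at 7.08 to 14.2 CPM in WT and 1.64 to 5.0004 CPM in iKO (-1.70 ± 0.29, adjusted p = 0.0135). Lypd1, a modulator of nicotinic receptors, and Col2a1, a cartilage collagen, had averaged log2 fold changes of -1.77 and -1.78 (adjusted p = 0.0313 and 0.027). Leaving out 1 library brought the adjusted p to as much as 0.0657 for Pappa (without iKO vehicle library 2), 0.125 for Lypd1 (without iKO vehicle library 2) and 0.136 for Col2a1 (without WT vehicle library 1).

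The group also held potassium channel subunits that carry no current of their own. Kcnv1, which modifies other channels, was at 32.1 and 50.4 CPM in vehicle-treated WT, 74.4 and 55.6 CPM in CFA-treated WT, 21.2 and 17.5 CPM in vehicle-treated iKO and 10.9 and 14.8 CPM in CFA-treated iKO. Kcnf1 was at 4.26 and 4.62 CPM in vehicle-treated WT, 7.05 and 4.52 CPM in CFA-treated WT, 1.35 and 1.32 CPM in vehicle-treated iKO and 2.08 and 1.48 CPM in CFA-treated iKO. Neither overlapped between the genotypes, and the averaged log2 fold changes were -1.71 ± 0.20, adjusted p = 0.00211 and -1.72 ± 0.26, adjusted p = 0.00766.

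**Figure D4:**
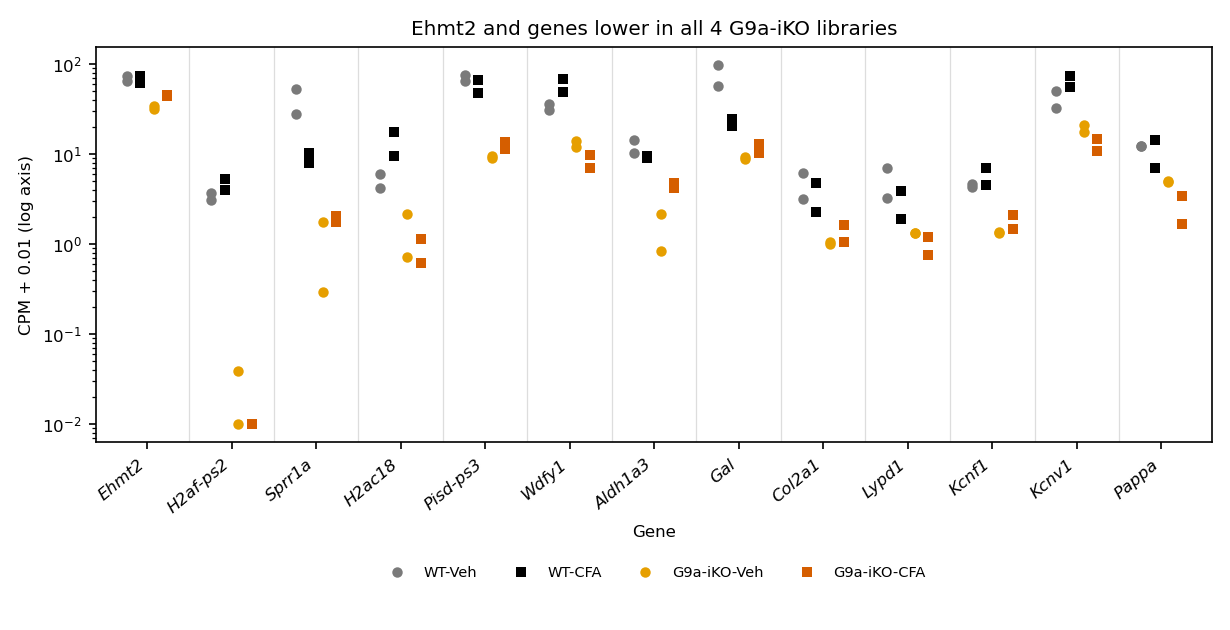
CPM plus 0.01 on a log axis for Ehmt2 and the 12 named genes with the largest falls; each point is a library, with circles for vehicle and squares for CFA, grey and black for WT and orange shades for iKO. All 4 iKO points lie below all 4 WT points for each gene, by little for Lypd1 (lowest WT library 1.88 CPM, highest iKO library 1.32 CPM).

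The gene lists described below are read against the shares of all genes tested, 3.18% higher and 2.4% lower. In the list of H3K9 methylation machinery, which covers the partners of Ehmt2 but not Ehmt2 itself, 0 of 28 members rose and 1 fell, the demethylase gene Kdm3a (-0.72 ± 0.17, adjusted p = 0.0449). Of 23 genes for DNA methylation, H3K4 and H3K27 enzymes 0 rose and 6 fell, with 0 free of overlap. They include the DNA methyltransferase Dnmt3a (-0.63), the demethylation enzyme Tet3 (-0.94) and the H3K4 methyltransferases Kmt2a (-1.01) and Kmt2c (-0.78). Dnmt3a was at 42.1 and 39.6 CPM in vehicle-treated WT, 13.3 and 16.7 CPM in CFA-treated WT, 17.2 and 16.8 CPM in vehicle-treated iKO and 13.6 and 16.4 CPM in CFA-treated iKO, so the WT vehicle libraries were high and the WT CFA libraries level with iKO. Without 1 of the 6 libraries outside WT CFA between 0 and 1 member of this list fell, against 9 and 15 without WT CFA library 1 or 2. With 1 library left out the adjusted p rose to at most 0.183 for Kdm3a (without iKO vehicle library 1), 0.172 for Dnmt3a (without iKO vehicle library 2), 0.103 for Tet3 (without iKO vehicle library 1), 0.135 for Kmt2a (without WT vehicle library 1) and 0.0744 for Kmt2c (without iKO vehicle library 1).

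Germline genes, which G9a is known to silence in other cells, were mostly not seen to change. Of 41 listed genes 25 were in the files and 19 passed the filter, and 1 of these rose and 0 fell. Magea13 is that gene. Mov10l1, a helicase of the piRNA pathway, was at 0.205 to 0.427 CPM in WT and 0.931 to 1.26 CPM in iKO, without overlap but short of the threshold (1.73 ± 0.49, adjusted p = 0.08). Of 54 clustered protocadherins, adhesion genes that give neurons their identity, 1 rose (Pcdhgc3, 0.66 ± 0.13, adjusted p = 0.0209) and 0 fell. The median of the protocadherins was 0.497 under vehicle and -0.513 under CFA. Of 37 imprinted genes 4 rose and 5 fell, with 1 free of overlap on each side. Igf2, the growth factor gene, was at 25.4 and 21.9 CPM in vehicle-treated WT and 16.5 and 60.1 CPM in CFA-treated WT. In iKO it was at 69.8 and 52.6 CPM under vehicle and 292 and 324 CPM under CFA. It was highest in the iKO CFA libraries, and the iKO vehicle libraries were above both WT vehicle libraries. Rian, a noncoding RNA, was at 354 and 433 CPM in vehicle-treated WT, 187 and 239.7 CPM in CFA-treated WT, 131 and 153 CPM in vehicle-treated iKO and 179 and 177 CPM in CFA-treated iKO, and the iKO CFA values were close to the lowest WT value. Its averaged log2 fold change was -0.87 ± 0.14, adjusted p = 0.0124. Meg3 of the same imprinted cluster was high in the WT vehicle libraries alone, at 877 and 1098 CPM in vehicle-treated WT, 8.36 and 3.59 CPM in CFA-treated WT, 7.65 and 16.8 CPM in vehicle-treated iKO and 5.30 and 3.67 CPM in CFA-treated iKO. The highest adjusted p with 1 library left out was 0.116 for Pcdhgc3 (without iKO vehicle library 2), 0.0735 for Igf2 (without WT vehicle library 1) and 0.0958 for Rian (without iKO vehicle library 1). Mov10l1 passed without WT CFA library 1.

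Ion channels moved in both directions and in small numbers in the averaged comparison, which joined opposite medians under vehicle and CFA. Under vehicle the medians were 0.503 for transduction, 0.66 for sodium, 0.45 for potassium and 0.212 for calcium channel genes. Under CFA they were -0.283, -0.661, -0.516 and -0.616 in that order. Under vehicle alone 9 transduction and 10 potassium channel genes were higher and 3 of each lower, and the interaction passed for 7 and 12. Of 32 transduction channel genes 2 rose and 0 fell. Besides Tmc2 the other was Asic1, an acid-sensing channel, at 28.4 and 42.7 CPM in vehicle-treated WT, 84.02 and 56.1 CPM in CFA-treated WT, 105 and 126 CPM in vehicle-treated iKO and 57.8 and 69.3 CPM in CFA-treated iKO. WT CFA library 1 lay among the iKO values, and the averaged log2 fold change was 0.78 ± 0.19, adjusted p = 0.0498. Tmc1, the relative of Tmc2, was at 0 to 0.477 CPM in WT and 1.08 to 2.43 CPM in iKO, without overlap and short of the threshold (2.58 ± 0.70, adjusted p = 0.0691). Trpa1, the irritant-gated channel, and Trpv1, the capsaicin- and heat-gated channel, overlapped between the genotypes. Their averaged log2 fold changes were -0.06 ± 0.19, adjusted p = 0.885 for Trpa1 and 0.14 ± 0.15, adjusted p = 0.645 for Trpv1, with opposite signs under vehicle (0.72 and 0.71) and under CFA (-0.84 and -0.44). The Asic1 call was lost without 1 of 6 libraries, with an adjusted p of up to 0.2 for Asic1 (without iKO vehicle library 2), and Tmc1 passed without WT CFA library 1 or 2. Trpa1 changed sign with WT vehicle library 2 (0.07) or the first WT CFA library (0.13) left out.

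Among the voltage-gated channels, 1 of 14 sodium channel genes rose and 0 fell. Scn2b, the beta subunit that guides sodium channels to the membrane, was at 40.7 and 50.8 CPM in vehicle-treated WT, 82.5 and 52.3 CPM in CFA-treated WT, 188 and 175 CPM in vehicle-treated iKO and 145 and 143 CPM in CFA-treated iKO. The lowest iKO library was well above the highest WT library, and the averaged log2 fold change was 1.54 ± 0.17, adjusted p = 0.00173. Of 75 potassium channel genes 5 rose and 3 fell, with 2 and 3 free of overlap. Kcnmb1, the beta subunit of the large-conductance calcium-activated channel, was at 25.1 and 24.7 CPM in vehicle-treated WT, 48.3 and 45.8 CPM in CFA-treated WT, 132 and 129 CPM in vehicle-treated iKO and 106 and 96.8 CPM in CFA-treated iKO. It rose under vehicle (2.39) and under CFA (1.11), and by 1.75 ± 0.12, adjusted p = 0.000129 on average. Kcnd2, which carries A-type current, was at 2.68 and 2.44 CPM in vehicle-treated WT, 2.54 and 2.53 CPM in CFA-treated WT, 0.662 and 1.15 CPM in vehicle-treated iKO and 0.512 and 0.603 CPM in CFA-treated iKO. All 4 WT values were alike and the iKO values lay below them (-1.84 ± 0.32, adjusted p = 0.0157), as did those of Kcnv1 and Kcnf1 described above. Of 23 calcium channel genes 1 rose (Cacng5, an auxiliary subunit, 0.88 ± 0.21, adjusted p = 0.0448, with overlap) and 0 fell. In each of the channel lists more genes passed when either WT CFA library was left out. Scn2b and Kcnmb1 kept their calls without each library in turn, and the adjusted p reached at most 0.0854 for Kcnd2 (without iKO vehicle library 1) and 0.191 for Cacng5 (without WT vehicle library 1).

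Receptors and neuropeptides showed a similar mix. Of 19 genes of the opioid, cannabinoid and muscarinic system 2 rose and 0 fell, with a median of 0.487 under vehicle and -0.0126 under CFA. Chrm4, a muscarinic acetylcholine receptor, was at 4.56 and 6.14 CPM in vehicle-treated WT, 8.63 and 9.21 CPM in CFA-treated WT, 17.99 and 14.7 CPM in vehicle-treated iKO and 10.3 and 12.2 CPM in CFA-treated iKO (0.98 ± 0.17, adjusted p = 0.0151), and Oprl1, the nociceptin receptor, overlapped between the genotypes (0.92 ± 0.20, adjusted p = 0.0319). Of 35 glutamate and GABA receptor genes 0 rose and 2 fell. Their median was 0.313 under vehicle and -0.524 under CFA, and under vehicle alone 4 were higher and 3 lower. Gria1, an AMPA receptor subunit, was at 21.2 and 28.3 CPM in vehicle-treated WT, 24.8 and 11.4 CPM in CFA-treated WT, 7.38 and 5.88 CPM in vehicle-treated iKO and 5.63 and 8.52 CPM in CFA-treated iKO. All iKO libraries were lower, and the averaged log2 fold change was -1.63 ± 0.27, adjusted p = 0.0123. Gabrb1, a GABA receptor subunit, was lower with overlap, at an averaged log2 fold change of -1.45 (adjusted p = 0.0227). Grin2b, an NMDA receptor subunit, was at 0.134 to 0.871 CPM in WT and 0.0245 to 0.110 CPM in iKO, lower without overlap at a level near the detection limit and short of the threshold (adjusted p = 0.169). The other calls were lost without some of the libraries, with a highest adjusted p of 0.093 for Chrm4 (without iKO vehicle library 1), 0.136 for Oprl1 (without WT vehicle library 1), 0.0643 for Gria1 (without iKO vehicle library 2) and 0.114 for Gabrb1 (without iKO vehicle library 2).

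Of 19 neuropeptide genes 0 rose and 2 fell, Gal and Nts. The list's median was 0.0839 under vehicle and -0.513 under CFA. Nts, which encodes neurotensin, was at 65.8 and 37.6 CPM in vehicle-treated WT, 28.04 and 65.9 CPM in CFA-treated WT, 15.2 and 11.9 CPM in vehicle-treated iKO and 21.3 and 25.4 CPM in CFA-treated iKO. The lowest WT library and the highest iKO library were close, and the averaged log2 fold change was -1.47 ± 0.29, adjusted p = 0.0232. Cck, which encodes cholecystokinin, was at 0.417 to 0.855 CPM in WT and 0 to 0.172 CPM in iKO without overlap, short of the threshold (adjusted p = 0.112). Gal and Nts are also members of the nerve injury list and count in both. Gal kept its call without each library in turn, and otherwise the highest adjusted p was 0.117 for Nts (without WT vehicle library 1). Cck passed without WT CFA library 2.

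Markers of the sensory neuron classes gave few calls in the averaged comparison, which joined opposite medians under vehicle and CFA. Under vehicle the medians were 0.713 for peptidergic, 0.496 for non-peptidergic, 0.396 for C-fibre low-threshold mechanoreceptor, 0.573 for large myelinated and 0.624 for pan-neuronal markers. Under CFA they were -0.261, -0.528, -0.744, -0.265 and -0.525 in that order. Medians of all genes were 0.015 and -0.018. Of 15 peptidergic and 20 non-peptidergic nociceptor markers 0 passed the threshold in either direction. Their averaged medians of 0.137 and -0.128 sat on either side of the median of all genes, -0.0095. Of 8 markers of C-fibre low-threshold mechanoreceptors 1 rose and 1 fell. Rarres1 was at 22.1 and 34.3 CPM in vehicle-treated WT, 63.001 and 60.6 CPM in CFA-treated WT, 84.03 and 79.7 CPM in vehicle-treated iKO and 88.6 and 77.7 CPM in CFA-treated iKO (0.98 ± 0.16, adjusted p = 0.0102), and Slc17a8, the vesicular glutamate transporter of these neurons, at 14.5 and 17.3 CPM in vehicle-treated WT, 25.3 and 11.9 CPM in CFA-treated WT, 10.9 and 9.76 CPM in vehicle-treated iKO and 6.57 and 6.88 CPM in CFA-treated iKO (-1.05 ± 0.23, adjusted p = 0.0374). Of 19 markers of large myelinated neurons 0 rose and 1 fell. Calb1, which encodes a calcium-binding protein, was at 28.05 and 42.7 CPM in vehicle-treated WT, 29.8 and 31.2 CPM in CFA-treated WT, 18.1 and 19.4 CPM in vehicle-treated iKO and 8.38 and 7.04 CPM in CFA-treated iKO. The iKO CFA libraries were lowest, all 4 iKO libraries lay below all WT libraries, and the averaged log2 fold change was -1.45 ± 0.16, adjusted p = 0.00197. Of 20 pan-neuronal genes 1 rose (Thy1, 0.61 ± 0.14, adjusted p = 0.0426) and 1 fell (Avil, above), both with overlap. The summed level of the pan-neuronal list was 10360 to 20880 CPM in WT and 17220 to 19550 CPM in iKO. With 1 library left out Calb1 remained past the threshold, and the highest adjusted p was 0.0592 for Rarres1 (without iKO CFA library 1), 0.153 for Slc17a8 (without iKO vehicle library 2) and 0.199 for Thy1 (without iKO vehicle library 1).

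Several genes of the nerve injury response fell. Of 25 tested 0 rose and 6 fell (24%, against 2.4% of all genes), and 5 of the 6 were free of overlap. Sprr1a, Gal and Nts are described above. Atf3, the transcription factor that marks injured sensory neurons, was at 117 and 86.8 CPM in vehicle-treated WT, 22.5 and 32.8 CPM in CFA-treated WT, 15.2 and 17.6 CPM in vehicle-treated iKO and 18.8 and 16.7 CPM in CFA-treated iKO. WT vehicle was highest, the WT CFA libraries were lower, and all iKO libraries lay below both. The averaged log2 fold change was -1.64 ± 0.17, adjusted p = 0.00133, with -2.63 under vehicle and -0.64 under CFA. Gadd45a, a growth arrest gene induced by nerve injury, was at 35.1 and 33.6 CPM in vehicle-treated WT, 24.4 and 23.4 CPM in CFA-treated WT, 16.5 and 15.6 CPM in vehicle-treated iKO and 20.7 and 14.5 CPM in CFA-treated iKO (-0.77 ± 0.15, adjusted p = 0.0209). Gap43, the growth cone protein, was at 206 to 245 CPM in WT and 141 to 172 CPM in iKO, without overlap and short of the threshold (-0.47 ± 0.12, adjusted p = 0.0654). The list's median was -1.04 under vehicle and -0.299 under CFA. Under vehicle alone 14 members were lower and 1 higher, and under CFA alone 0 passed in either direction. Leaving out 1 of the 6 libraries outside WT CFA gave 3 to 4 lower members, and leaving out WT CFA library 1 or 2 gave 16 each. Sprr1a, Gal and Atf3 passed every time, and the highest adjusted p was 0.118 for Gadd45a (without iKO vehicle library 2). Gap43 passed without WT CFA library 1 or 2.

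In other lists of lower genes the WT vehicle libraries were the high ones. Of 30 immediate early genes, which are induced within minutes by activity or handling, 10 fell and 0 rose, 1 free of overlap. The list's median was -1.65 under vehicle and 0.292 under CFA. Fos, a member, was at 99.1 and 91.9 CPM in vehicle-treated WT, 4.70 and 3.01 CPM in CFA-treated WT, 4.09 and 5.63 CPM in vehicle-treated iKO and 5.21 and 5.87 CPM in CFA-treated iKO, and the interaction passed for 18 of the 30. All 8 nuclear noncoding RNAs tested fell, 1 free of overlap, with a median of -4.77 under vehicle and -0.267 under CFA. Malat1 was at 1323 and 1187 CPM in vehicle-treated WT, 36.3 and 39.3 CPM in CFA-treated WT, 31.9 and 56.98 CPM in vehicle-treated iKO and 27.4 and 35.2 CPM in CFA-treated iKO. Leaving out both WT vehicle libraries was possible only in the additive model, which with all 8 libraries called 188 genes, 162 higher and 26 lower. Without those libraries it called 164, 148 higher and 16 lower. Of the 471 genes that had risen without overlap the additive model called 159 with all 8 libraries and 112 without those 2, and of the 132 that had fallen, 19 and 9. Without 1 of the 6 libraries outside WT CFA 5 to 7 immediate early genes and 5 to 7 nuclear noncoding RNAs fell. Without WT CFA library 1 or 2 those numbers were 20 and 16 for the immediate early genes and 8 each for the noncoding RNAs.

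**Figure D5:**
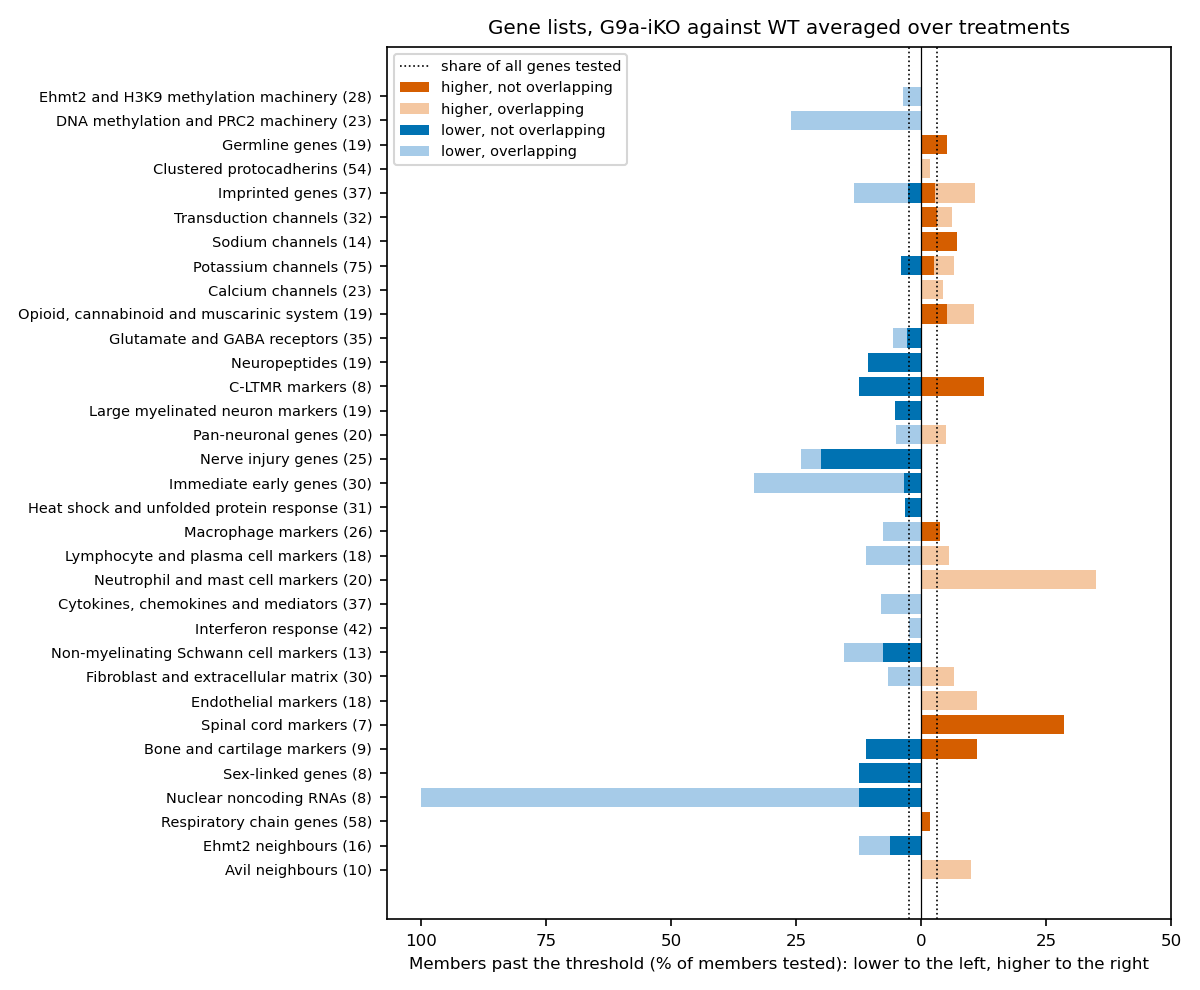
Share of the tested members of each gene list (number tested in brackets) that passed the threshold in the averaged comparison, higher to the right and lower to the left; dark parts had no overlap between the genotypes, and dotted lines mark the shares of all genes (3.18% and 2.4%). Nuclear noncoding RNAs and immediate early genes reach farthest to the left with mostly pale bars, nerve injury genes have mostly dark bars, and neutrophil markers reach farthest to the right with pale bars.

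Immune markers with a call mostly overlapped between the genotypes. Of 20 neutrophil and mast cell markers 7 rose and 0 fell, with 0 free of overlap and a median of 0.557 under vehicle and 3.11 under CFA. Their summed level was 117.1 to 341.1 CPM in WT and 163.7 to 1758 CPM in iKO, highest in the iKO CFA libraries. Ltf, a granule protein, was at 5.19 and 3.60 CPM in vehicle-treated WT, 5.10 and 25.3 CPM in CFA-treated WT, 14.4 and 10.4 CPM in vehicle-treated iKO and 175 and 183 CPM in CFA-treated iKO and Mmp9, a granule protease, at 2.38 and 1.52 CPM in vehicle-treated WT, 1.18 and 4.86 CPM in CFA-treated WT, 5.07 and 2.53 CPM in vehicle-treated iKO and 54.99 and 59.6 CPM in CFA-treated iKO. Of 18 lymphocyte and plasma cell markers 1 rose and 2 fell. Jchain, a protein that links antibody units, was at 1944 and 780.1 CPM in vehicle-treated WT, 0.961 and 0.445 CPM in CFA-treated WT, 4.73 and 2.30 CPM in vehicle-treated iKO and 23.4 and 31.6 CPM in CFA-treated iKO, and Cd3e, of the T cell receptor complex, at 4.46 and 3.49 CPM in vehicle-treated WT, 0.0534 and 0.205 CPM in CFA-treated WT, 2.94 and 5.11 CPM in vehicle-treated iKO and 3.31 and 3.59 CPM in CFA-treated iKO. Jchain was high in WT vehicle alone, and Cd3e was low in WT CFA alone. Of 26 macrophage markers 1 rose and 2 fell, and of 42 interferon response genes 0 rose and 1 fell. Under vehicle alone 21 macrophage markers and 17 interferon response genes were lower, under CFA 0 of either, and the interaction passed for 18 and 16. Without WT CFA library 1 the averaged comparison called 18 macrophage markers and 15 interferon response genes lower, and without WT CFA library 2, 6 of each. Gas6, a ligand of receptors on phagocytes, rose without overlap, at 97.04 to 161 CPM in WT and 176 to 209 CPM in iKO (0.58 ± 0.12, adjusted p = 0.033). What these cells contribute to the other averaged changes was not tested. Between 0 and 5 neutrophil and mast cell markers rose without 1 of the 6 libraries outside WT CFA, and 13 and 17 without WT CFA library 1 and 2. The highest adjusted p with 1 library left out was 0.0816 for Ltf (without WT vehicle library 1), 0.0664 for Mmp9 (without WT vehicle library 2), 0.165 for Jchain (without WT CFA library 1), 0.056 for Cd3e (without WT vehicle library 1) and 0.203 for Gas6 (without iKO vehicle library 2).

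Glia, vessel and blood markers gave few calls in the averaged comparison. Of 16 satellite glia and 17 myelinating Schwann cell markers 0 passed in either direction. Medians under vehicle and under CFA were 0.138 and 0.024 for satellite glia and -0.645 and 0.374 for myelinating Schwann cells. Of 13 markers of non-myelinating Schwann cells 0 rose and 2 fell; Chl1, an adhesion molecule, was at 190.2 and 131 CPM in vehicle-treated WT, 141 and 107 CPM in CFA-treated WT, 99.9 and 92.3 CPM in vehicle-treated iKO and 67.7 and 78.01 CPM in CFA-treated iKO (-0.76 ± 0.16, adjusted p = 0.0343). Of 18 endothelial markers 2 rose and 0 fell, both with overlap. Under vehicle alone 7 of these 18 were lower and 0 higher. Under CFA alone 3 were higher and 0 lower, and the interaction passed for 6. None of 9 erythroid, 12 pericyte and smooth muscle, 18 skeletal muscle or 11 adipocyte markers passed. Without WT CFA library 2, 7 erythroid and 4 adipocyte markers were higher. Under vehicle alone 9 of the 18 skeletal muscle markers were lower, with a median of -5.26, against a median of 1.18 under CFA. Erythroid markers summed to 162.5 to 1592 CPM in WT and 360.6 to 1714 CPM in iKO, and WT CFA library 2 and both iKO CFA libraries were above the rest. The Chl1 call was lost without 5 of the libraries, with an adjusted p of up to 0.167 for Chl1 (without iKO vehicle library 2).

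Markers of tissues beside the ganglion were checked because Gad1 is among them. Of 7 spinal cord markers tested 2 rose, Gad1 and Aqp4, and 0 fell. Aqp4, the water channel of astrocytes and satellite glia, was at 9.35 and 9.32 CPM in vehicle-treated WT, 8.73 and 8.86 CPM in CFA-treated WT, 13.9 and 13.5 CPM in vehicle-treated iKO and 15.999 and 22.3 CPM in CFA-treated iKO (0.84 ± 0.16, adjusted p = 0.0194). The list summed to 193.6 to 357 CPM in WT and 243.2 to 349.1 CPM in iKO, and Gad2, the second gene for GABA synthesis, was at or below 0.477 CPM in all 8 libraries. Of 9 bone and cartilage markers 1 rose (Alpl, alkaline phosphatase, 1.08 ± 0.17, adjusted p = 0.00867) and 1 fell (Col2a1). Summed levels of that list were 31.99 to 47.03 CPM in WT and 36.84 to 45.83 CPM in iKO. Gad1 passed without each library in turn, and the highest adjusted p was 0.114 for Aqp4 (without iKO CFA library 2) and 0.0642 for Alpl (without iKO CFA library 2).

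Genes for basic cell functions gave few calls in the averaged comparison of all 8 libraries. Of 58 respiratory chain genes 1 rose and 0 fell. It was Ndufs5, a subunit of complex I, at 63.9 and 71.3 CPM in vehicle-treated WT, 12.1 and 17.9 CPM in CFA-treated WT, 98.3 and 102 CPM in vehicle-treated iKO and 143 and 141 CPM in CFA-treated iKO. All iKO libraries were highest, and the WT CFA libraries were far below WT vehicle (1.91 ± 0.15, adjusted p = 0.00035). Of 77 cytosolic ribosomal protein genes, 13 mitochondrially encoded genes and 23 sterol synthesis genes 0 passed in either direction. This, and the low number of respiratory chain calls, depended on the WT CFA libraries. More respiratory chain genes passed when either of these libraries was left out. Without WT CFA library 1, 42 ribosomal protein and 11 mitochondrially encoded genes were lower and 13 sterol synthesis genes higher, and without WT CFA library 2, 16 ribosomal protein and 6 sterol synthesis genes were higher. Under vehicle alone 16 of the 23 sterol synthesis genes were higher, and the interaction passed for 11. Of 31 heat shock and unfolded protein response genes 1 fell, Hspa1b, at 75.3 and 48.6 CPM in vehicle-treated WT, 36.96 and 23.4 CPM in CFA-treated WT, 20.2 and 17.3 CPM in vehicle-treated iKO and 19.9 and 17.2 CPM in CFA-treated iKO (-1.21 ± 0.20, adjusted p = 0.0118). Of 8 sex-linked genes 0 rose and 1 fell. Eif2s3y, on the Y chromosome, was at 27.99 to 52.1 CPM in WT and 16.2 to 22.4 CPM in iKO (-0.93 ± 0.14, adjusted p = 0.00827), and Ddx3y, also Y-linked, was at 66.6 to 84.6 CPM in WT and 50.2 to 66.4 CPM in iKO and did not pass (-0.30 ± 0.14, adjusted p = 0.244). Every library thus had reads of both genes. Ndufs5 passed without each library in turn, and the highest adjusted p was 0.0657 for Hspa1b (without iKO vehicle library 2) and 0.0548 for Eif2s3y (without iKO CFA library 2). Ddx3y passed without WT CFA library 1.

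Genes beside Ehmt2 on its chromosome were examined separately. Gene order was taken from the RefSeq annotation (98.3% of tested genes matched by symbol or synonym). Its build differs from that of the counts, so distances here are counted in tested genes and not in bases. Of the 50 nearest tested genes, 25 on each side, 6 were called (12%) and 5 did not overlap (10%), against 5.58% and 6.35% of all tested. Of the 100 nearest, 6 were called (6.0%) and 7 did not overlap (7.0%), and of the 200 nearest 15 (7.5%) and 16 (8.0%). Of the 400 nearest, 28 were called (7.0%) and 38 did not overlap (9.5%). Hspa1b lies 3 tested genes from Ehmt2. Glo1, the glyoxalase that detoxifies methylglyoxal, lies 128 tested genes away and was at 141 and 147 CPM in vehicle-treated WT, 218 and 221 CPM in CFA-treated WT, 438 and 431 CPM in vehicle-treated iKO and 429.7 and 436 CPM in CFA-treated iKO (1.29 ± 0.12, adjusted p = 0.00077). Btnl6, a butyrophilin-like gene, lies 23 away (0.101 to 0.988 CPM in WT and 5.81 to 7.57 CPM in iKO), Gpsm3, a regulator of G protein signalling, 20 away (5.66 to 11.02 CPM in WT and 12.8 to 24.2 CPM in iKO), H2-M10.2, an MHC class Ib gene, 78 away (0.268 to 0.923 CPM in WT and 6.95 to 13.3 CPM in iKO), Rnf39 86 away (0.417 to 1.68 CPM in WT and 8.31 to 11.5 CPM in iKO) and Dnah8, an axonemal dynein gene, 127 away (1.12 to 2.47 CPM in WT and 9.34 to 23.2 CPM in iKO). These 6 genes were chosen after their values were seen, and none overlapped between the genotypes. Around Avil, 2 of the 50 nearest tested genes were called (4.0%) and 1 did not overlap (2.0%). Of the 100 nearest to Avil, 5 were called (5.0%) and 6 did not overlap (6.0%). The window of 200 tested genes on each side of Avil held only 292, because 1 side had fewer. Of these 292, 11 were called (3.77%) and 15 did not overlap (5.14%). Counted in tested genes from Avil, Tph2 is at -74, Nts at -106 and Slc17a8 at -167, all 3 without overlap. Marchf9, a ubiquitin ligase gene near Avil, rose with overlap (0.72 ± 0.15, adjusted p = 0.0289). Whether the stretch of chromosome inherited with the floxed allele bears on these values was not tested. Where the Cre sequence lies in the genome was not examined. The calls of Marchf9 and Gpsm3 were lost without 1 of the 6 libraries outside WT CFA, with an adjusted p of up to 0.137 for Marchf9 (without WT vehicle library 1) and 0.124 for Gpsm3 (without WT vehicle library 1).

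By RefSeq class, 72% of the matched genes that rose without overlap were protein-coding, 19.1% were long noncoding RNAs and 8.6% pseudogenes. The shares were 76.9%, 14.6% and 6.15% among those that fell, and 79.8%, 13.2% and 6.42% among all tested. Of the 471 that rose, 124 had no established gene name, and of the 132 that fell, 28.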

How the data were processed

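Total RNA of dorsal root ganglia was sequenced in 8 libraries, 2 in each of 4 groups. Per the submitters' processing notes, the authors aligned reads with HISAT2 2.2.1 to GRCm39 (mm39), used SAMtools 1.19.2 and counted reads with featureCounts 2.0.6; DESeq2 is named without a version. The annotation, strand setting and library layout are not given in the sources used here, so overlapping and antisense genes cannot be told apart. The deposited values are raw counts per gene symbol, whole numbers with no scaling, in 1 file per library with identical genes.

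The fits used edgeR 4.0.16 under R 4.3.3: filterByExpr by group, TMM scaling, 1 mean per group over all 8 libraries, glmQLFit and two-sided glmQLFTest, and Benjamini-Hochberg adjustment over all 20235 genes tested, with a threshold of 0.05. CPM were computed on the TMM-scaled library sizes. Genotypes were called not overlapping where all 4 CPM values of one lay above all 4 of the other. Log2 fold changes are given ± a standard error derived from the test. It is the absolute log2 fold change divided by the square root of the F statistic. This value is approximate for genes with few reads in a group. The test was run on simulated data before use.

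The comparison, the 44 gene lists and the naming rule were chosen with earlier results of these data known. The rule names Ehmt2, Trpa1 and Trpv1, the 12 largest rises and 12 largest falls among named genes past the threshold, not overlapping and averaging 1 or more on the log2 CPM scale, and up to 4 members per list with the smallest p. The text gives values for only some of these list members, and 1 gene is not reported here. Arpc4 and Abcb8 mark the limit of non-overlap. Alternatives were other scalings (RLE, total counts), DESeq2 1.42.0, filters, an additive model, other edgeR settings, a replicate block and leaving out each library. Exact 95% counting intervals use the reads summed per genotype. Promoter sequences come from RefSeq (GRCm38.p6), a build other than that of the counts, and were matched by symbol only.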

Additional observations from a re-analysis of the deposited data

Results flagged for a closer look

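The averaged comparison can join 2 unlike differences, so the difference between the treatments was tested for every gene (edgeR, Benjamini-Hochberg adjustment). It passed for 1895 genes, and for 29 of the 99 genes named here. The values below are the genotype log2 fold change under CFA minus that under vehicle.

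Among genes that rose without overlap, the difference between treatments was -2.94 for Magea13 (7.76 under vehicle and 4.81 under CFA), 1.97 for Gad1 (3.37 under vehicle and 5.34 under CFA), -1.28 for Kcnmb1 (2.39 under vehicle and 1.11 under CFA), -2.09 for Rnf39 (4.64 under vehicle and 2.54 under CFA) and -1.22 for Htr3b (2.25 under vehicle and 1.03 under CFA), with the same direction under both treatments. Prss41 (8.98), Rnps1-ps (5.78), Glo1-ps (5.08) and Ndufs5 (2.68) shared a pattern in which both WT CFA libraries were the lowest of all 8. The value of Prss41 depends on the count the model adds, since both WT CFA libraries had 0 reads. Among genes that fell without overlap it was -1.44 for Wdfy1, with the larger fall under CFA, and Gal 2.14, Atf3 1.99 and Rian 1.21, with the larger fall under vehicle.

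For genes whose genotypes overlapped, the differences were as follows. The WT vehicle libraries were highest for Fos (4.81), Malat1 (4.55), Meg3 (5.92), Dnmt3a (1.26) and Jchain (13.84), and Jchain was lower in iKO under vehicle and higher under CFA. They were lowest for a group of mostly neuronal genes, with Trpv1 -1.15, Pcdhgc3 -1.15, Asic1 -1.85, Thy1 -1.12, Oprl1 -1.50, Marchf9 -1.64 and Abcb8 -0.92. The difference was -1.67 for Cacng5 and -1.56 for Trpa1. Trpa1 was at 0.72 under vehicle and -0.84 under CFA, neither past the threshold. Mmp9 (3.29) was higher in iKO mainly under CFA, as was Cd3e (4.75).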

How the results depend on the processing

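The averaged fold change of Ehmt2 kept its sign under all alternatives tried, between -0.91 and -0.77 with 1 library left out. It did not pass in the additive model (-0.85, adjusted p = 0.0516) or in the additive model without both WT vehicle libraries (-0.61, adjusted p = 0.205). That fit and the additive model without both WT CFA libraries (-1.16) change the model and the libraries together and were chosen after seeing the data. Scaling by RLE or by total counts, no low-count filter and robust fitting left every count of genes within 1.5 times its value. DESeq2 called 2592 genes, 1240 higher and 1352 lower, 918 without overlap (267 of them lower), 1232 under CFA and 4133 for the interaction. The additive model called 188, 162 higher and 26 lower, 178 without overlap (159 higher, 19 lower). Legacy = FALSE gave 542 calls under CFA, and the stricter filter left 568 genes wholly above WT. The share of calls that were higher was 57% and became 86.2% in the additive model and 47.8% in DESeq2. In the additive model without both WT vehicle libraries 164 genes were called, 148 higher and 16 lower, 149 without overlap (134 and 15), and 1683 and 1107 genes lay wholly above and below WT. In the additive model without both WT CFA libraries 8303 were called, 4038 higher and 4265 lower, 5879 without overlap (2680 and 3199), and 4155 and 5239 lay wholly above and below. With 1 library left out, calls ranged from 325 (without WT vehicle library 1) to 5106 (without WT CFA library 1), higher calls from 213 to 3052, lower calls from 112 to 2407, calls without overlap from 244 to 2133, those higher from 203 to 1368 and those lower from 36 to 809. Genes wholly above WT ranged from 1042 to 1804 and wholly below from 522 to 1351, with fewer libraries to separate. Calls under vehicle ranged from 394 to 8464, under CFA from 73 to 5819 and for the interaction from 228 to 8303. A group left with 1 library is assumed to vary like the others. Trpa1 turned positive when WT vehicle library 2 (0.07) or the first WT CFA library (0.13) was left out, with a range of -0.22 to 0.13 over the 8 libraries. Over 98 genes named beside Ehmt2 and 1663 values, 1358 kept direction and call, 286 lost the call, 17 gained it and 2 changed sign. With the replicate number as a block, 790 genes were called, 207 under CFA and 1062 for the interaction, and Ehmt2 was at -0.84 (adjusted p = 0.013). The numbers share no stated animal or batch, and deviations of same-numbered libraries correlated between -0.144 and 0.0275. Such correlations cannot show whether same-numbered libraries shared a batch, which the labels do not state. Depth limits genes with few reads, such as those at 0 in a group, and 2 libraries per group limit the rest.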

Other observations

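Further genes that rose without overlap, beyond the 12 largest rises, are given here with what they are known for. They were chosen after their values were seen, and no list of epidermal, plasma protein or developmental genes was counted. Brackets give the averaged log2 fold change with its standard error (edgeR, Benjamini-Hochberg adjustment). Drd1, a dopamine receptor, was at 0 to 0.477 CPM in WT and 2.41 to 7.50 CPM in iKO (4.48 ± 0.73, adjusted p = 0.011). Chrna1, the nicotinic receptor subunit of muscle, was at 0.187 to 1.37 CPM in WT and 2.77 to 8.70 CPM in iKO (2.85 ± 0.57, adjusted p = 0.0257), and Htr3b, a serotonin receptor subunit known in sensory neurons, at 6.84 to 17.3 CPM in WT and 30.1 to 39.7 CPM in iKO (1.64 ± 0.15, adjusted p = 0.000736). Nos1, the neuronal nitric oxide synthase, was at 13.6 to 39.2 CPM in WT and 49.5 to 111 CPM in iKO (1.41 ± 0.24, adjusted p = 0.0138). Developmental transcription regulators included Dach2 at 0.374 to 1.11 CPM in WT and 12.8 to 20.1 CPM in iKO (4.39 ± 0.30, adjusted p = 0.00015), Pax8 at 0.685 to 1.18 CPM in WT and 3.73 to 7.62 CPM in iKO (2.65 ± 0.30, adjusted p = 0.00209) and Eya1 at 0.655 to 0.821 CPM in WT and 3.02 to 4.52 CPM in iKO (2.35 ± 0.26, adjusted p = 0.00183). Genes known from epidermis included the lipoxygenase Alox12b (3.71), the galectin Lgals7 (3.52) and the keratin Krt79 (3.28), with adjusted p of 0.0192, 0.0014 and 0.000882. Genes of blood plasma proteins included the complement component Hc at 0.684 to 1.14 CPM in WT and 6.80 to 16.7 CPM in iKO (3.69 ± 0.21, adjusted p = 4.93e-05) and the coagulation factor F5 at 0.0801 to 1.14 CPM in WT and 3.44 to 6.54 CPM in iKO (3.55 ± 0.55, adjusted p = 0.00885). Among genes that fell, Unc5d, a netrin receptor, was at 3.02 to 6.52 CPM in WT and 0.713 to 2.23 CPM in iKO (-1.63 ± 0.28, adjusted p = 0.0146). With 1 library left out the adjusted p rose to at most 0.0613 for Drd1 (without WT vehicle library 1), 0.103 for Chrna1 (without WT vehicle library 1), 0.0854 for Nos1 (without WT vehicle library 1), 0.121 for Alox12b (without WT vehicle library 1) and 0.0791 for Unc5d (without iKO vehicle library 2), and the others of this paragraph kept their calls.

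For 2 gene families a pseudogene was called beside its parent, also chosen after the values were seen. Rnps1, a splicing factor gene, was at 29.8 and 32.7 CPM in vehicle-treated WT, 57.02 and 38.8 CPM in CFA-treated WT, 21.4 and 22.02 CPM in vehicle-treated iKO and 17.1 and 15.3 CPM in CFA-treated iKO. Rnps1-ps was at 19.1 and 20.7 CPM in vehicle-treated WT, 0.347 and 0.308 CPM in CFA-treated WT, 32.9 and 30.1 CPM in vehicle-treated iKO and 26.4 and 31.6 CPM in CFA-treated iKO. The parent was lower in iKO (-1.05 ± 0.15, adjusted p = 0.00671) and the pseudogene higher (3.55 ± 0.16, adjusted p = 1.77e-05). Glo1-ps was at 10.6 and 16.4 CPM in vehicle-treated WT, 0.374 and 0.513 CPM in CFA-treated WT, 38.3 and 36.5 CPM in vehicle-treated iKO and 37.2 and 45.8 CPM in CFA-treated iKO, higher in iKO (4.01 ± 0.21, adjusted p = 3.43e-05) as was its parent Glo1. Both pseudogenes were near 0 in the WT CFA libraries and not in the WT vehicle libraries. Reads can be shared between a pseudogene and its parent, and how the authors' counting placed them was not tested.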
